A study of Mus musculus with 2 samples.

Results

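The genes described here make up the angiotensin and endothelin systems of the mouse heart, chosen by symbol as 9 of the 30385 entries of a 5′RNA-seq table: Agt, Ace, Agtr1a, Agtr1b, Agtr2, Edn1, Ece1, Ednra and Ednrb. 5′RNA-seq is a polyA RNA-seq variant without fragmentation, in which reads gather near transcript starts. One library came from hearts of MHC403/+ mice, heterozygous for a myosin heavy chain missense mutation that models hypertrophic cardiomyopathy (HCM), and the other from wild-type (WT) hearts. Mice of both genotypes were of the 129/SvEv strain, aged 8 to 16 weeks, and had all been injected subcutaneously with CsA (cyclosporine A, a calcineurin inhibitor) at 15 mg/kg for 2 weeks, with 2 doses daily. No library without the drug was analysed here. Hearts of each genotype were pooled, with the number of animals not stated in the labels, so each genotype is 1 library, no difference has a replicate check, and no test across genotypes was possible.

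Both systems work by cutting a secreted precursor into a short vasoactive peptide. Angiotensinogen (Agt) is cut by renin and then by angiotensin-converting enzyme (Ace) to angiotensin II, which acts on type 1 receptors (Agtr1a and its mouse duplicate Agtr1b) and on the type 2 receptor (Agtr2). Preproendothelin-1 (Edn1) is trimmed by furin-type proteases and by endothelin-converting enzyme (Ece1) to endothelin-1, which acts on the A receptor (Ednra) of muscle cells and on the B receptor (Ednrb), known in endothelium for nitric oxide release and for clearing the peptide. In the heart both peptides are known for vasoconstriction, myocyte growth and fibrosis, and blockers of the angiotensin arm are standard heart failure drugs.

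The table gives 1 count per gene whatever its number of annotated starts, so the upstream sequence of each start gives the context of these counts. The table lists 2 starts for Ace, 7261 bases apart on mm9, of which the upstream one is known to make the somatic enzyme and the inner one the testis form. It lists 2 starts for Ednrb, 477 bases apart, and 2 for Ece1, 58552 bases apart, and a single start for each of the other members. The 4 windows printed here are 2 of Ace, 1 of Ednrb and 1 of Ednra. Ace and Ednrb had the highest ratios among members with enough reads, and Ednra is the receptor set against Ednrb below. The windows are the 250 bases before each RefSeq start on GRCm38.p6, a later build than that of the counts, 5′ to 3′ on the gene's strand. They were not placed on the listed mm9 starts. The 2 Ace windows lie 7241 bases apart. RefSeq gave 1 window for Ednrb, and which of its 2 listed starts it precedes is not known. Capitals mark matches, on either strand, to any of 8 short motifs, whose letters are spelled out after the sequences.
Ace, upstream start, chr11:105967698-105967947, plus strand: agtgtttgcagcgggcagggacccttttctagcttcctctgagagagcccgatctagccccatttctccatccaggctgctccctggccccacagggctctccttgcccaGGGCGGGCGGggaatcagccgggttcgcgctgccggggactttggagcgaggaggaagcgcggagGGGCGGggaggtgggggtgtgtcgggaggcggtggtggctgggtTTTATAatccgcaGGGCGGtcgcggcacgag
Ace, inner start, chr11:105974939-105975188, plus strand: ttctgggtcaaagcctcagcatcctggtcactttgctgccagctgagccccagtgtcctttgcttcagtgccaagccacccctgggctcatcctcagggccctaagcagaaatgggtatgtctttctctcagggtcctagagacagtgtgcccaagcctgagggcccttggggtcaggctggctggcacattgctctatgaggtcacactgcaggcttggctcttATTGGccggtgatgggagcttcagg
Ednrb, chr14:103843702-103843951, minus strand: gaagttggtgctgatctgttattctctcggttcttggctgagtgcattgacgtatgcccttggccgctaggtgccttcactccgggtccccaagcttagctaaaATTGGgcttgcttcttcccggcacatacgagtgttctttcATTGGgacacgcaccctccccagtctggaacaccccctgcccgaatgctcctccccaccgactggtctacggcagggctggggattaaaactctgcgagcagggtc
Ednra, chr8:77724453-77724702, minus strand: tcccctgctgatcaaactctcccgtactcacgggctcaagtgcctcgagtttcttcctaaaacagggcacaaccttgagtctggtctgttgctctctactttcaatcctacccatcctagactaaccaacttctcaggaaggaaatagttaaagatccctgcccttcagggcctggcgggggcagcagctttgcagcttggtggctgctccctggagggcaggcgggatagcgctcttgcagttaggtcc
The upstream Ace window was 67.2% G+C, against a median of 52.4% over all 32851 RefSeq windows of this length. It held 4 copies of GGGCGG (the GC box), of which the first and second overlap, and TATAAA (the TATA box) on the opposite strand 31 to 26 bases before the start. The inner Ace window held 1 CCAAT box on the opposite strand and none of the other 7 motifs. The Ednrb window held the CCAAT box at 2 places, both on the opposite strand, and the Ednra window held none of the 8. Over all windows the GC box was found in 32.7%, the CCAAT box in 33.8% and the TATA box in 12.4%. The AP-1 motif was spelled TGACTCA and found in 4.46% of windows, and the GATA motif was spelled AGATAA and found in 9.99%. For NFAT, the factor downstream of calcineurin, the letters searched were GGAAAA, found in 20.4%. The E-box was searched as CACGTG and found in 6.02%, and the TEAD motif as CATTCC and found in 12.6%. These are letter matches and not shown to be bound. RefSeq windows were matched for 8 of the 9 genes, the other being Agtr1a.

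Totals were 5468677 reads for MHC403 and 5481123 for WT, of which mitochondrial entries took 13.7% in the MHC403 library and 29.5% in WT. With totals that leave those entries out, every log2 ratio is lower by 0.29, and the Ace ratio is 3.92 and the Ednrb ratio 3.85. Levels are given in RPM, reads per 1000000 of the library's reads, ratios are MHC403 over WT, and ranges in parentheses are exact 95% intervals that cover counting error only. Cardiac identity was plain, with all 9 cardiomyocyte markers well covered. Entries whose larger count was 50 reads or more are called measured. There were 9507 of them, with a median ratio of 1.48 (log2 0.57), and median-of-ratios scaling lowers every log2 ratio by 0.55. A ratio of 2 or more was found for 26.1% of measured genes and a ratio of 0.5 or less for 2.43%. Under median-of-ratios scaling these shares were 10.9% and 7.59%. Among the 9 members 5 were measured, and of these Ace and Ednrb were past 2-fold on the higher side and none on the lower side, with either scaling. The nearer bound of the interval was past 2-fold for these same 2 genes, against 12.6% of measured genes past 2-fold higher and 1.04% past 2-fold lower by that rule. Intervals lay wholly above a ratio of 1 for Ace, Ednrb and Ece1, and wholly below it for no measured member, against 63.2% and 10.3% of measured genes. With 5 genes these shares are a description. Ednrb reached 50 reads in the MHC403 library alone. In whole hearts, more cells of a type and more RNA per cell cannot be told apart.

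**Figure D1:**
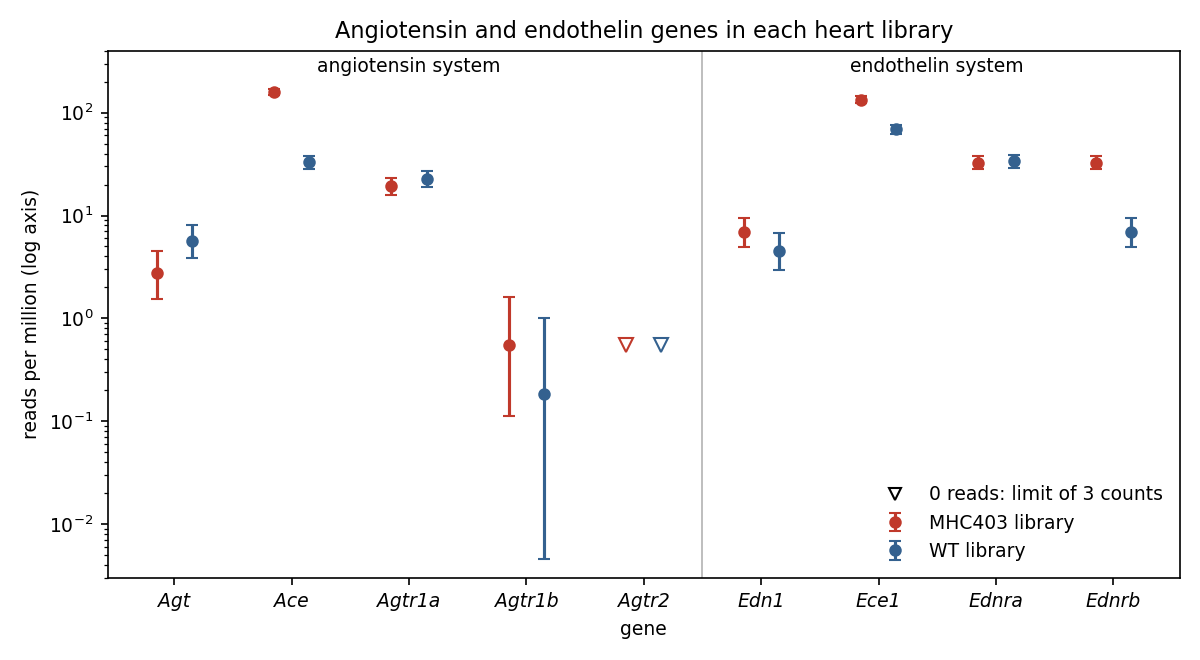
Levels in RPM (log axis) of the 9 genes in the MHC403 library (red, left of each pair) and the WT library (blue), with exact 95% counting intervals; triangles mark Agtr2, with 0 reads, at the level of 3 counts. Ace (157.8 RPM in MHC403 against 32.8 in WT) and Ednrb (32.7 RPM in MHC403 against 6.93 in WT) stand apart between the libraries, while Ednra and Agtr1a have overlapping intervals.

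The peptide precursors were low in both hearts. Agt (chromosome 8, 127080487 to 127093607 on mm9, minus strand), whose main known source is the liver, had 15 reads in the MHC403 library and 31 in WT, or 2.74 RPM (1.54 to 4.52) in the MHC403 library and 5.66 RPM (3.84 to 8.03) in WT. The ratio was 0.485 (0.243 to 0.926), and 0.332 (0.166 to 0.633) with median-of-ratios scaling. Agt was the only member with a ratio below 0.5. The interval of that ratio lay below 1 with both scalings, but Agt lay under the read minimum. The RPM intervals, made for each library alone, overlap and do not measure the difference. Edn1 (chromosome 13, 42396639 to 42403358, plus strand), the gene of endothelin-1, had 38 reads in the MHC403 library and 25 in WT, or 6.95 RPM (4.92 to 9.54) in the MHC403 library and 4.56 RPM (2.95 to 6.73) in WT. Its ratio of 1.52 (0.896 to 2.63) was close to the median of measured genes, its interval spanned 1, and with median-of-ratios scaling it was 1.04 (0.613 to 1.80).

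The converting enzymes were the best covered members, and the angiotensin enzyme differed more between hearts than the endothelin enzyme. Ace (chromosome 11, 105829261 to 105851261, plus strand) had 863 reads in the MHC403 library and 180 in WT, or 157.8 RPM (147 to 169) in the MHC403 library and 32.8 RPM (28.2 to 38.0) in WT. The ratio was 4.81 (4.09 to 5.67), and median-of-ratios scaling gave 3.29 (2.80 to 3.88). Among the 9507 measured genes 384 had a higher ratio. The counts do not separate the 2 starts, so which Ace start gave the reads is not known. Ece1 (chromosome 4, 137418152 to 137521144, plus strand) had 733 reads in the MHC403 library and 379 in WT, or 134.0 RPM (125 to 144) in the MHC403 library and 69.1 RPM (62.4 to 76.5) in WT. Its ratio of 1.94 (1.71 to 2.20) lay just under 2-fold, above that of 72.0% of measured genes, and was 1.33 (1.17 to 1.51) with median-of-ratios scaling.

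Among angiotensin receptors, nearly all reads were those of the 1A type, which was not higher in the MHC403 library. Agtr1a (chromosome 13, 30428225 to 30474736, plus strand) had 105 reads in the MHC403 library and 125 in WT, or 19.2 RPM (15.7 to 23.2) in the MHC403 library and 22.8 RPM (19.0 to 27.2) in WT. The ratio of 0.842 (0.643 to 1.10) had an interval that spanned 1 and stood above that of 12.0% of measured genes. With median-of-ratios scaling it was 0.576 (0.440 to 0.753), wholly below 1, so whether its interval spans 1 rests on the scaling. Agtr1b (chromosome 3, 20213395 to 20266099, minus strand), the duplicate receptor gene, had 3 reads in the MHC403 library and 1 in WT, a ratio of 3.01 (0.241 to 158) that gives no direction. Agtr2 (chromosome X, 21061752 to 21065957, plus strand), the fetal-type receptor, had 0 reads in both, and a limit of 3 counts, used for counts of 0 in place of an interval, corresponds to 0.549 RPM in the MHC403 library and 0.547 RPM in WT. The Agtr1a and Agtr1b transcripts share 3.37% of the 36-base words of Agtr1a and none in its first 200 bases. An exact 36-base match within those bases would therefore tell them apart. No source used here says how reads with several matches were counted.

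The endothelin receptors differed in their ratios, high for the B receptor and near 1 for the A receptor. Ednrb (chromosome 14, 104213842 to 104243390, minus strand) had 179 reads in the MHC403 library and 38 in WT, or 32.7 RPM (28.1 to 37.9) in the MHC403 library and 6.93 RPM (4.91 to 9.52) in WT. The ratio was 4.72 (3.31 to 6.89), or 3.23 (2.27 to 4.71) with median-of-ratios scaling, and 396 measured genes had a higher one. Ednra (chromosome 8, 80186928 to 80248351, minus strand) had 179 reads in the MHC403 library and 184 in WT, or 32.7 RPM (28.1 to 37.9) in the MHC403 library and 33.6 RPM (28.9 to 38.8) in WT. The Ednra ratio of 0.975 (0.789 to 1.204) spanned 1, and with median-of-ratios scaling it was 0.667 (0.540 to 0.824), wholly below 1. The receptors share no 36-base word, and no member's windows overlap those of another entry.

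**Figure D2:**
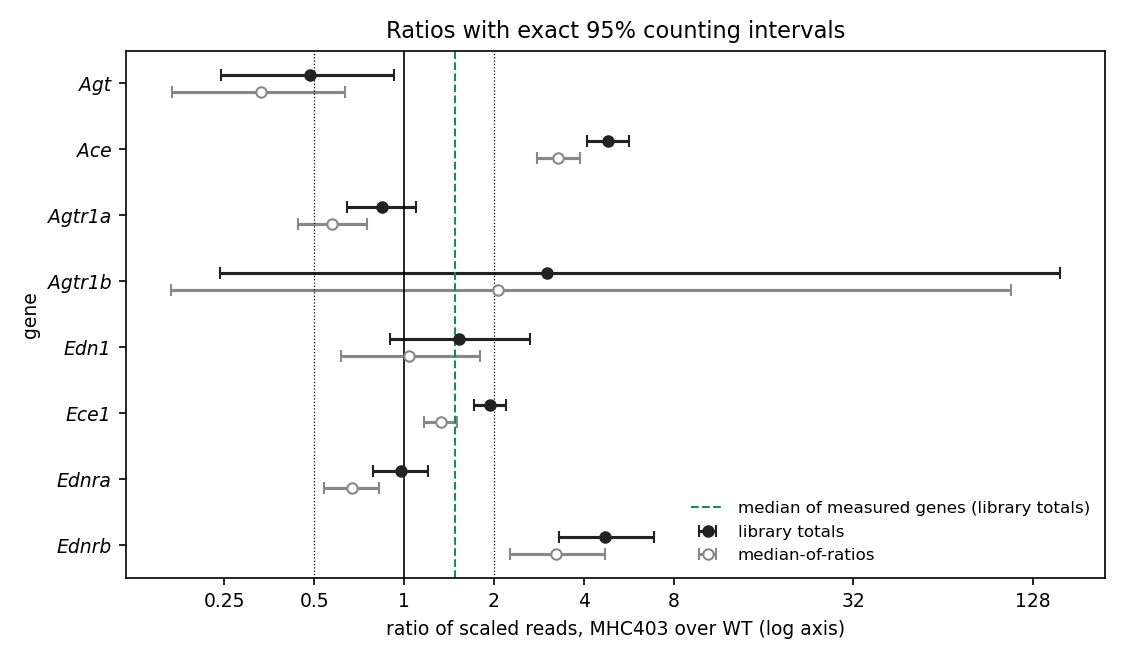
Ratio of scaled reads, MHC403 over WT (log axis), for the 8 genes with reads, with exact 95% counting intervals; filled points use library totals, open points median-of-ratios scaling. Solid and dotted vertical lines mark ratios of 1 and of 2-fold either way, and the dashed line the median of measured genes, 1.48. Ace and Ednrb lie past 2-fold with both scalings, and Agt, Edn1 and Agtr1b rest on few reads.

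Ratios between members do not depend on how the libraries were scaled, and 10 such pairs were computed. Ednrb took 50% (44.7 to 55.3, exact binomial) of the 358 reads of both endothelin receptors in the MHC403 library and 17.1% (12.4 to 22.7) of 222 in WT. The Ednrb to Ednra read ratio was therefore 4.84-fold (3.18 to 7.47) higher in the MHC403 library. The Ace to Agtr1a read ratio, enzyme to receptor, was 8.22 in the MHC403 library and 1.44 in WT, a 5.71-fold (4.16 to 7.83) difference. The Ace to Ece1 read ratio was 1.18 in the MHC403 library and 0.475 in WT, 2.48-fold (2.01 to 3.06) apart. Ace thus differed between hearts by more than the enzyme of the other system. The Ace to Ednrb read ratio was nearly the same in both, 4.82 in the MHC403 library and 4.74 in WT (1.02-fold, 0.673 to 1.51), and so was that of Ednra to Agtr1a, at 1.70 in the MHC403 library and 1.47 in WT (1.16-fold, 0.820 to 1.64). The Edn1 to Agt read ratio of the precursors was 2.53 in the MHC403 library and 0.806 in WT (3.14-fold, 1.32 to 7.56). Both genes lay under the read minimum. The Ece1 to Ednra read ratio was 1.99-fold (1.55 to 2.55) higher, and that of Ece1 to Edn1 differed by 1.27-fold (0.724 to 2.20), an interval that spans 1. The Ace to Agt read ratio, enzyme to substrate, was 57.5 in the MHC403 library and 5.81 in WT, 9.91-fold (5.05 to 20.1) higher. It rests on 15 Agt reads in the MHC403 library and 31 in WT, under the read minimum.

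**Figure D3:**
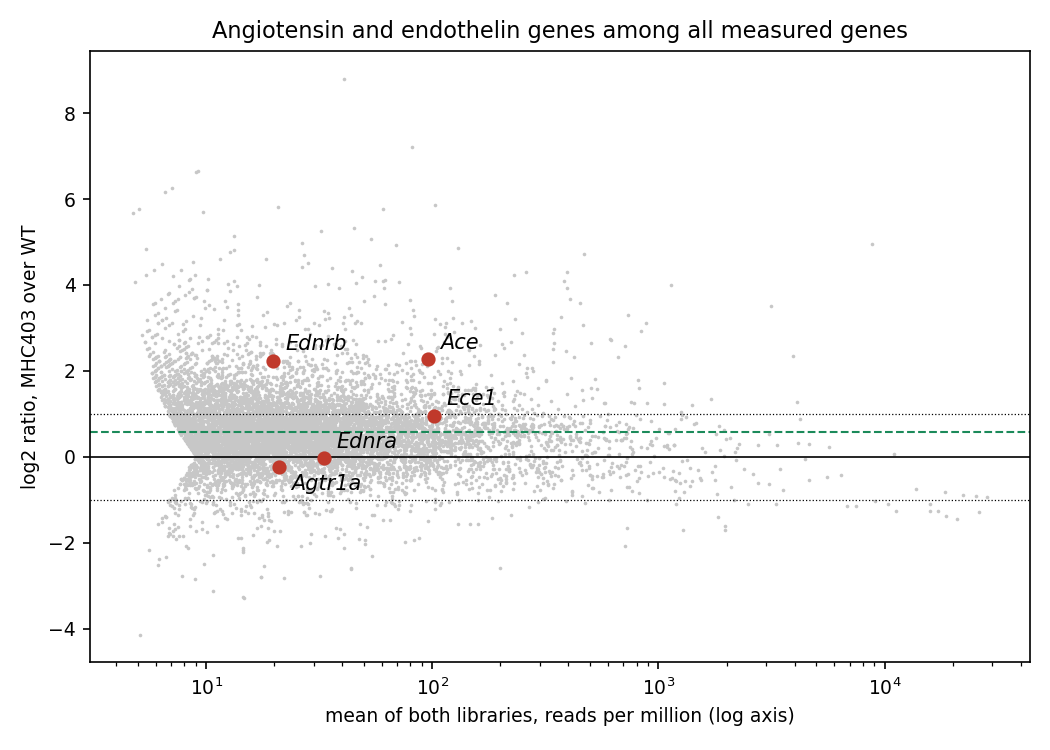
Log2 ratio (MHC403 over WT) against mean level in RPM (log axis) for measured genes with reads in both libraries (grey), with the 5 measured members in red; the dashed line is the median of measured genes, log2 0.57, and dotted lines mark 2-fold. Ace and Ednrb lie above the bulk at log2 ratios of 2.26 and 2.24, Ece1 at 0.95, and Ednra and Agtr1a below the median at -0.04 and -0.25.

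The order of the members within a heart was read from RPM per kb of the windows that the table lists around and downstream of each start. No source used here says whether counting was limited to these windows. In the MHC403 library Ace came first at 197 RPM per kb, followed by Ece1 at 157, Ednra at 81.8, Agtr1a at 48.0, Ednrb at 43.1, Edn1 at 17.4, Agt at 6.86 and Agtr1b at 1.37. Neighbours in that order differed beyond counting error except Agtr1a and Ednrb, whose levels stood at 1.11 to 1 (0.866 to 1.42), and Agtr1b and the unread Agtr2. In WT Ednra came first at 83.9 RPM per kb, followed by Ece1 at 81.0, Agtr1a at 57.0, Ace at 41.1, Agt at 14.1, Edn1 at 11.4, Ednrb at 9.13 and Agtr1b at 0.456. There Ednra and Ece1 could not be separated, nor could Agt, Edn1 and Ednrb from their neighbours among themselves. By this scale Ace had rank 1 in the MHC403 library and rank 4 in WT. The listed windows came to 854 bases for Ece1, 800 for Ace and 759 for Ednrb, the genes with 2 starts, and 400 for each other member. If 1 start gave most reads, this division sets such genes too low. Before it, Ace stood above Agtr1a in WT too, at 32.8 RPM against 22.8 RPM, so the WT rank of Ace rests on the window lengths. So do the WT ranks of Ednra and Ednrb. Before the division Ece1 stood above Ednra in WT, at 69.1 RPM against 33.6 RPM. Ednrb, at 6.93 RPM, stood above Agt at 5.66 RPM and Edn1 at 4.56 RPM there. In the MHC403 library Ednrb stood level with Ednra at 32.7 RPM, and above Agtr1a at 19.2 RPM.

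Other renin-angiotensin genes included several peptidases past 2-fold, and most lay above a ratio of 1, as did most measured genes (10 of 12 against 80.7%). Of 25 further renin-angiotensin names 24 were in the table and 12 were measured, of which 6 had a ratio of 2 or more and none of 0.5 or less, with a median log2 ratio of 1.0 beside 0.57 for all measured genes. With median-of-ratios scaling 3 were higher and 1, the angiotensin IV-binding aminopeptidase Lnpep, was lower. Among all measured genes 26.1% had a ratio of 2 or more and 2.43% of 0.5 or less. With median-of-ratios scaling these shares were 10.9% and 7.59%. Atp6ap2, the (pro)renin receptor and a subunit of the proton pump, had 102 reads in the MHC403 library and 30 in WT (3.41-fold, 2.25 to 5.31). The peptidases Dpp3 (286 reads in MHC403 against 106 in WT, 2.70-fold, 2.16 to 3.41), Anpep (151 reads in MHC403 against 51 in WT, 2.97-fold, 2.15 to 4.16) and Nln (104 reads in MHC403 against 33 in WT, 3.16-fold, 2.12 to 4.83) were also past 2-fold with library totals, Dpp3 no longer with median-of-ratios scaling (1.85-fold). Dpp3 and Anpep are known to degrade angiotensins and Nln, neurolysin, to cut angiotensin I. Atp6ap2 and Nln reached the read minimum in the MHC403 library alone, as did Prcp, another of the 6 higher genes. Lnpep reached it in WT alone. Renin itself, Ren1, had 0 reads in both libraries, with the same limit of 3 counts. Mas1, the receptor of angiotensin 1-7, had 1 read in the MHC403 library and 6 in WT (ratio 0.167, 0.00363 to 1.38). The mast cell chymase Cma1 had 12 reads in the MHC403 library and 5 in WT, and the AT1 receptor-associated protein Agtrap 99 in the MHC403 library and 101 in WT.

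Of 8 further endothelin names 3 were measured and 1, Ece2, had a ratio above 2 with either scaling, and the median log2 ratio was 1.0. Among all measured genes 26.1% had a ratio of 2 or more, or 10.9% with median-of-ratios scaling. Ece2, a second converting enzyme, had 69 reads in the MHC403 library and 21 in WT (3.29-fold, 2.00 to 5.65). Ece2 reached the read minimum in the MHC403 library alone. Edn3, a ligand that the B receptor binds as well as endothelin-1, had 15 reads in the MHC403 library and 1 in WT, a ratio of 15.0 (2.31 to 633) that rests on few reads and lies under the minimum. Edn2 had 0 reads in both. The processing protease Furin, with 1307 reads in the MHC403 library and 657 in WT, had a ratio of 1.99 (1.81 to 2.19), near that of Ece1.

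Downstream, the G proteins, effectors and regulators of these receptors lay close to the bulk. Of 34 names 33 were in the table and 26 were measured, with 6 at least 2-fold higher, none lower and a median log2 ratio of 0.64, and 2 passed with median-of-ratios scaling. The receptor-coupled alpha subunits Gnaq (214 reads in MHC403 against 124 in WT, 1.73-fold, 1.38 to 2.18) and Gna11 (356 reads in MHC403 against 259 in WT, 1.38-fold, 1.17 to 1.62) are named as the receptors' direct partners and were chosen after their values were seen. The highest were protein kinase C delta, Prkcd (191 reads in the MHC403 library and 52 in WT, 3.68-fold, 2.70 to 5.10), and arrestin Arrb2 (180 reads in MHC403 against 55 in WT, 3.28-fold, 2.41 to 4.52), followed by Gnai2 and Gna13, both 2.52-fold and both 1.73-fold with median-of-ratios scaling. Genes known to be induced by angiotensin II or endothelin-1, which other growth stimuli induce too, had a far higher median log2 ratio of 3.29. Of 20 names 17 were measured. Their counts stand beside the bulk shares above, 26.1% higher using library totals and 10.9% after median-of-ratios. Among the 17, 16 had a ratio of 2 or more, or 14 with median-of-ratios scaling, and none of 0.5 or less. They included Thbs1, a matricellular protein (648 reads in MHC403 against 12 in WT, 54.1-fold, 30.8 to 105), the connective tissue growth factor Ctgf (4556 reads in MHC403 against 383 in WT, 11.9-fold, 10.7 to 13.3) and osteopontin, Spp1 (446 reads in MHC403 against 1 in WT, 447-fold, 79.8 to 17695). Thbs1 and Spp1 reached the read minimum in the MHC403 library alone, as did Ccl2, Fos, Myc, Egr1, Hbegf and Ncf1. The Spp1 ratio rests on 1 read in WT. The list of peptide-induced genes was drawn up with earlier results of these data known, so its count is no independent sign of its direction.

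**Figure D4:**
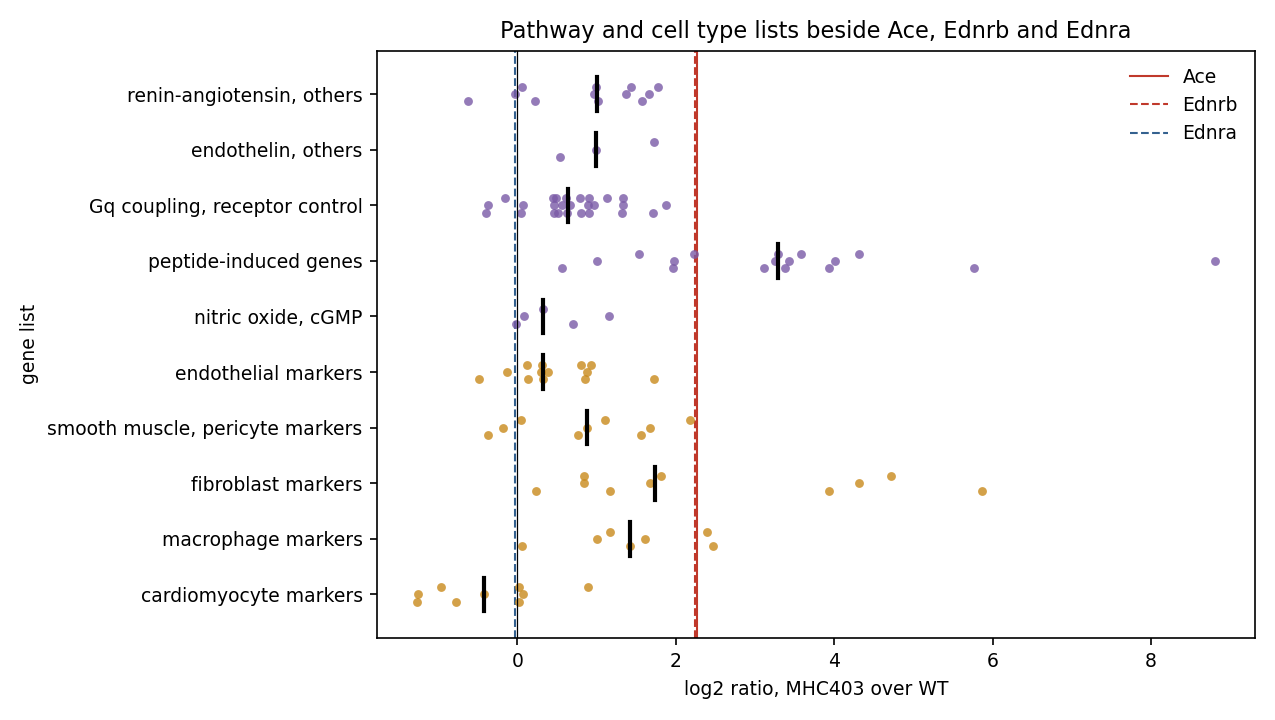
Log2 ratio (MHC403 over WT) of measured genes in the pathway lists (purple) and cell type marker lists (orange), with black bars at list medians and vertical lines at Ace, Ednrb and Ednra. Skeletal muscle markers (median -1.57), the bradykinin list (1 measured gene) and lists with no measured marker are not drawn. The cardiomyocyte median is -0.42, the fibroblast median 1.74 and that of peptide-induced genes 3.29; every endothelial marker lies below Ace and Ednrb.

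Levels of cell type markers differed as well, and were set beside Ace and Ednrb. Ace is classically an endothelial enzyme, and in rat scar tissue is also known from fibroblast-like cells, while Ednrb is known in endothelium and Ednra in smooth muscle. All 13 endothelial markers were measured and 1, Cldn5, was past 2-fold on the higher side, against 26.1% of all measured genes. The list's median log2 ratio was 0.32, or -0.23 with median-of-ratios scaling, so its direction rests on the scaling, with summed levels of 916 RPM in the MHC403 library and 695 RPM in WT (1.32-fold, 1.26 to 1.38). Per 1000 endothelial marker reads there were 172 Ace reads in the MHC403 library and 47.3 in WT (3.64-fold, 3.08 to 4.33), and 35.7 Ednrb reads in the MHC403 library and 9.98 in WT (3.58-fold, 2.50 to 5.24). Smooth muscle and pericyte markers, 9 of 10 measured and 4 higher, summed to 593 RPM in the MHC403 library and 369 RPM in WT (1.61-fold, 1.52 to 1.70). Against that sum Ednra was lower in the MHC403 library, at 55.2 reads per 1000 and 90.9 in WT (0.607-fold, 0.488 to 0.756). The measured markers of that list had ratios of 0.771 (Rgs5) to 4.51. Rgs5 lay below the Ednra ratio of 0.975, so that direction depends on the markers summed. Fibroblast markers, 10 of 10 measured and 7 higher, summed to 3265 RPM in the MHC403 library and 489 RPM in WT (6.68-fold, 6.41 to 6.96). That sum rests on 3 collagens and Postn, with ratios of 15.3 to 58.2 and 14139 of the 17857 marker reads in the MHC403 library. The other 6 markers had ratios of 1.18 to 3.51 and summed to 680 RPM in the MHC403 library and 365 RPM in WT (1.86-fold, 1.76 to 1.97). Per 1000 reads of all 10 markers there were 48.3 Ace reads in the MHC403 library and 67.2 in WT (0.720-fold, 0.609 to 0.854), and per 1000 reads of the other 6 there were 232 in the MHC403 library and 89.9 in WT (2.58-fold, 2.18 to 3.08). For Ednrb the fold was 0.707 (0.495 to 1.03) with all 10 and 2.54 (1.77 to 3.72) with the other 6. The direction relative to fibroblast markers therefore turned with the choice of markers, a split made after the data were seen. Macrophage markers, 7 of 7 measured and 6 higher, summed to 305 RPM in the MHC403 library and 108 RPM in WT. Cardiomyocyte markers, with 2 of 9 lower and none higher, summed to 45388 RPM in the MHC403 library and 70182 RPM in WT (0.647-fold, 0.643 to 0.650). The part of these cell types in the Ace and Ednrb ratios was not tested.

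The authors' deposited table also gives a start-site score per gene. No source used here gives its formula, and in the authors' deposited table it is above 0 in 34.7% of the 10483 entries with at least 20 reads in both libraries. In the authors' deposited table Ednra scored 9, a value that 16.6% of those entries reach, and Ece1 scored 3, which 27.5% reach. In the authors' deposited table the score was 0 for Ace, Ednrb and the other 5 members. All 3641 entries scored above 0 in the authors' deposited table had at least 20 reads in both libraries. Agt, Agtr1b and Agtr2 did not reach that number, so their score of 0 carries no information on start sites. Ednra thus had a score above 0 with nearly equal reads, and Ace and Ednrb a score of 0 with the highest ratios among the measured members.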

How the data were processed

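Heart RNA of MHC403/+ and WT mice was measured by 5′RNA-seq, 1 pooled library per genotype. Per the file headers, the authors deposited whole-number read counts per gene, and also RPM, which on recomputation were counts scaled to column totals (largest difference 4.94e-06). A fold, MHC403 over WT, was deposited as the quotient of the RPM values. The authors' deposited p-value comes from an unstated test and was not used. A score for start sites was also deposited, in whole numbers and with no stated formula. Per the submitters' processing notes, TopHat 1.0.14 and mm9 were used. No source used here names the counting program or its use of strand, so antisense reads cannot be told apart.

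Counts were scaled to column totals, 5468677 and 5481123 reads in the MHC403 and WT libraries. Ratios carry exact (Clopper-Pearson) 95% intervals conditional on a gene's reads, levels exact Poisson intervals, and ratios between 2 genes exact conditional intervals of the odds ratio (scipy 1.17.1, Python 3.11.15). They cover counting error only, since reads have no molecular identifiers, and for 0 reads a floor of 3 counts in a library was used in place of an interval. Scripts were tested on simulated data. Median-of-ratios factors came from DESeq2 1.42.0 and TMM factors from edgeR 4.0.16, both under R 4.3.3, for scaling alone. Starts were written 1-based. Of measured entries 1418 (14.9%) overlap another entry's windows.

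The members, gene lists and rules were chosen with earlier results of these data known. All 9 members were named, with a fixed set of other enzymes, receptors and ligands and, of each pathway list, up to 4 genes past 2-fold whose interval bound lay farthest from 1; some of the genes so chosen are not reported here. Pathway lists held further renin-angiotensin, endothelin and bradykinin genes, receptor coupling, peptide-induced genes and nitric oxide and guanylate cyclase genes. Marker lists held endothelial, smooth muscle, fibroblast, cardiomyocyte, macrophage, mast, Schwann, mesothelial, skeletal muscle and liver genes. Alternatives were 3 scalings, 3 read minimums, a stricter call rule and leaving out overlapping entries.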

Additional observations from a re-analysis of the deposited data

How the results depend on the processing

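Ace and Ednrb stayed at least 2-fold higher under every scaling and with the interval-bound rule. No member's windows overlap those of another entry, so leaving out overlapping entries could not change a member's call. A minimum of 200 reads left 1 member higher, Ace, because Ednrb had 179. Agt made 1 member lower with a minimum of 20 reads and 1 without a minimum, where 3 were higher, with Agtr1b (3 reads in MHC403 against 1 in WT) added. Over all genes, 2483 were higher and 231 lower with column totals and 50 reads. The counts were 1033 and 722 with median-of-ratios scaling, 1040 and 718 with TMM and 1528 and 400 with totals that leave out mitochondrial entries. They were 989 and 100 with 200 reads, 3388 and 357 with 20 reads, 6054 and 1707 with no minimum and 1201 and 99 with the interval-bound rule. Without the collagens and Postn, a choice made after seeing the data, the folds per fibroblast marker read reversed to 2.58 for Ace (0.720 with all markers) and 2.54 for Ednrb (0.707). The lower number of reads in Agt, Edn1, Agtr1b and Agtr2 limits any statement on them, and pooling leaves variation between animals unmeasured. No paired analysis was possible because each genotype has 1 library.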

Other observations

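Bradykinin, which Ace also degrades, and nitric oxide, which the endothelin B receptor is known to release, were covered by 2 further lists. Of 9 bradykinin names 1 was measured, the carboxypeptidase Cpd, with 269 reads in the MHC403 library and 132 in WT (2.04-fold, 1.65 to 2.54; 1.40-fold with median-of-ratios scaling). The bradykinin receptors Bdkrb1 and Bdkrb2 and the precursor genes Kng1 and Kng2 had 0 reads in both. Of 10 genes of nitric oxide and guanylate cyclase signalling 5 were measured and 1 had a ratio above 2, with a median log2 ratio of 0.32, or -0.23 with median-of-ratios scaling. That gene was Nos3, the endothelial nitric oxide synthase, with 233 reads in the MHC403 library and 105 in WT (2.22-fold, 1.76 to 2.83). With median-of-ratios scaling Nos3 was 1.52-fold higher and no gene of the list passed 2-fold. Among all measured genes 26.1% had a ratio of 2 or more, or 10.9% with median-of-ratios scaling. The soluble guanylate cyclase subunits Gucy1a3 (84 reads in the MHC403 library and 85 in WT) and Gucy1b3 (53 in the MHC403 library and 50 in WT) were within 2-fold.

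Markers of rarer cells were thinly covered. Schwann cell markers, in whose lineage Ednrb is also known, summed to 60 reads in the MHC403 library and 28 in WT (2.15-fold, 1.35 to 3.49), with none of 5 measured. Mast cell markers summed to 64 reads in the MHC403 library and 43 in WT, and mesothelial and epicardial markers to 131 in the MHC403 library and 56 in WT, with none measured. Liver markers summed to 5 reads in the MHC403 library and 4 in WT. Of 6 skeletal muscle markers 3 were measured, the myosins Myh1, Myh2 and Myh4, and all 3 were at least 2-fold lower in the MHC403 library, with a list sum of 60.3 RPM in the MHC403 library and 161 RPM in WT.

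By distance in log2 RPM over the 2 libraries, the entries nearest to Ace were Qsox1 (0.11), Clic1 (0.13) and Pdlim7 (0.15), and those nearest to Ece1 were Pttg1ip (0.02), Hprt (0.02) and Vcl (0.02). A likeness over 2 points is a description of these libraries.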
